A study of Mus musculus with 15 samples.

Results

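The 37 genes of the mouse mitochondrial chromosome were followed in 15 RNA-seq libraries of mouse bone marrow cells. They were taken as every identifier of the deposited table whose symbol begins with mt-, which gave 13 protein genes, 2 ribosomal RNAs and 22 transfer RNAs among 56979 identifiers. Libraries of BMDM, the usual abbreviation of bone marrow-derived macrophages, had been treated with LPS+NZM (group LPS_NZM), with LPS alone (group LPS) or with vehicle (group Control). LPS is lipopolysaccharide, a bacterial cell wall component that activates macrophages. Libraries of BMSC, the usual abbreviation of bone marrow stromal cells, had been treated with H2HO+NZM (group Aged_NZM) or with H2HO (group Aged). Each group held 3 libraries, all cells were wild type, and NZM followed the model drug in both cell types. The labels explain neither NZM nor H2HO, give no dose, time or age, and do not say whether the libraries of a group came from separate cultures or animals, so p-values measure the spread between these libraries only. No BMSC group without H2HO is among the 15 libraries, and the pretreatment is therefore shared by both BMSC groups.

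The mitochondrial chromosome is transcribed from both strands into long precursor RNAs, which are cut mostly at the transfer RNAs that lie between the other genes. The 13 proteins are subunits of respiratory complexes I, III and IV and of the ATP synthase (complex V), while the 2 ribosomal RNAs and 22 transfer RNAs serve the organelle's own translation. Most processed mRNAs receive a short poly(A) tail, transfer RNAs do not, and all factors that copy, transcribe, cut and translate the chromosome are encoded in the nucleus. The values are TPM, the abundance of a transcript scaled by its length and by the library total, so that levels of different genes can be set side by side. In a bulk library, fewer cells of a type and less RNA per cell cannot be told apart. The libraries were made from poly(A)-selected RNA and the table holds no counts, so the depth behind each value is unknown.

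The values of 7 of the 13 protein genes were divided with an annotated copy in the nuclear genome. The search covered 141730 GENCODE M21 transcripts from outside the mitochondrial chromosome. Transcripts of 23 genes shared a 31-base word with it. For 7 of these genes, at least 95% of the 31-base words of the transcript were found in a mitochondrial protein gene. All 7 lie on chromosome 1, and read along that chromosome their order is the reverse of that of the genes on the mitochondrial chromosome. Gm28661 matched mt-Co2 over 681 of 681 bases, Gm10925 matched mt-Atp6 over 678 of 678 and Gm28437 matched mt-Co3 over 783 of 783. Gm10222 matched mt-Nd4l over 294 of 294 bases, and Gm28439 matched the first 876 of the 1378 bases of mt-Nd4 without a difference. Gm28438 differed from mt-Nd3 at 1 of 345 bases, and Gm29216 matched 486 of 492 bases from base 1054 of mt-Co1 on. The other 6 protein genes, mt-Nd1, mt-Nd2, mt-Nd5, mt-Nd6, mt-Cytb and mt-Atp8, had no copy above this cut-off. Copies below it were neither aligned nor added. Among them were Gm13339, with 28.3% of its 31-base words in mt-Nd2, and Gm4076, with 24.6% in mt-Nd5. Their part in the values of these genes was not tested. The sequences below, as GENCODE M21 transcripts, show how little separates a gene from its copy. For mt-Nd4l and Gm10222 the capitals mark the last 3 bases, which the copy lacks, and in the other 2 pairs they mark the bases that differ (T3C for mt-Nd3, and T3A, C4T, A6G, A7G, C9A and A13T for mt-Co1, counted from 1 at the first base of the copy, with the mitochondrial base first).
mt-Nd4l: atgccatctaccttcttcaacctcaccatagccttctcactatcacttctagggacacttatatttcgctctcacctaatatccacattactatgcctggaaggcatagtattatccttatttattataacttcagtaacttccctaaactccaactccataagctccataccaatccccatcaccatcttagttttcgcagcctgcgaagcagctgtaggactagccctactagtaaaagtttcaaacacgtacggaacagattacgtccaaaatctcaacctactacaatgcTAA
Gm10222: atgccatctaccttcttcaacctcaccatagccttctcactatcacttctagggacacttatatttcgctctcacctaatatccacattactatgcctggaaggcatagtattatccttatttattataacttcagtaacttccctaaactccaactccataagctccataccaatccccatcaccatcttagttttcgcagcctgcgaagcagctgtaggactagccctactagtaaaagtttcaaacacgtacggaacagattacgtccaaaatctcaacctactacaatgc
mt-Nd3, first 60 bases: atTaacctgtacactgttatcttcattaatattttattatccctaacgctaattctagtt
Gm28438, first 60 bases: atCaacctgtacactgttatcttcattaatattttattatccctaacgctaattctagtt
mt-Co1, 60 bases from base 1054: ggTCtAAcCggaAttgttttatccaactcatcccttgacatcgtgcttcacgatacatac
Gm29216, first 60 bases: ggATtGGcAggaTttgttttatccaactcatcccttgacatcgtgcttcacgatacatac

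TPM was divided between gene and copy differently in the BMSC libraries and in the BMDM libraries. For the 5 genes copied over almost their whole length (mt-Co2, mt-Atp6, mt-Co3, mt-Nd3 and mt-Nd4l), the mitochondrial gene held 0.0134% to 14.1% of the TPM of the pair in the 6 BMSC libraries, against 48.1% to 51.9% in the 9 BMDM libraries. In Aged_NZM libraries mt-Co2, which encodes a catalytic subunit of cytochrome c oxidase, stood at 451, 186 and 257 TPM beside a mean of 12597 TPM for Gm28661. In Aged libraries mt-Co2 stood at 141, 110 and 26.9 TPM beside a mean of 2447 TPM for Gm28661. In Control libraries mt-Co2 averaged 2903 ± 136 TPM and Gm28661 2905 ± 135 TPM (SD, n = 3 each), so that the pair was level in BMDM and lopsided in BMSC. The pair of mt-Nd4 went the other way: Gm28439 was listed at 0 in all 6 BMSC libraries, whereas mt-Nd4 held 60.8% to 62.7% of the pair in BMDM. The levels of these genes and of their copies are therefore best read as sums in BMSC, where the changes of the 5 genes are given below both for the gene alone and with the copy's TPM added in proportion to its length. Values in the BMDM comparisons, centred values and mean levels listed gene by gene are for the genes alone. With copies added, the count of protein genes called as deposited was 13 lower for LPS against Control, 13 higher for LPS_NZM against LPS and 10 lower for LPS_NZM against Control, equal to that for the genes alone. What set the division between gene and copy was not tested.

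**Figure D1:**
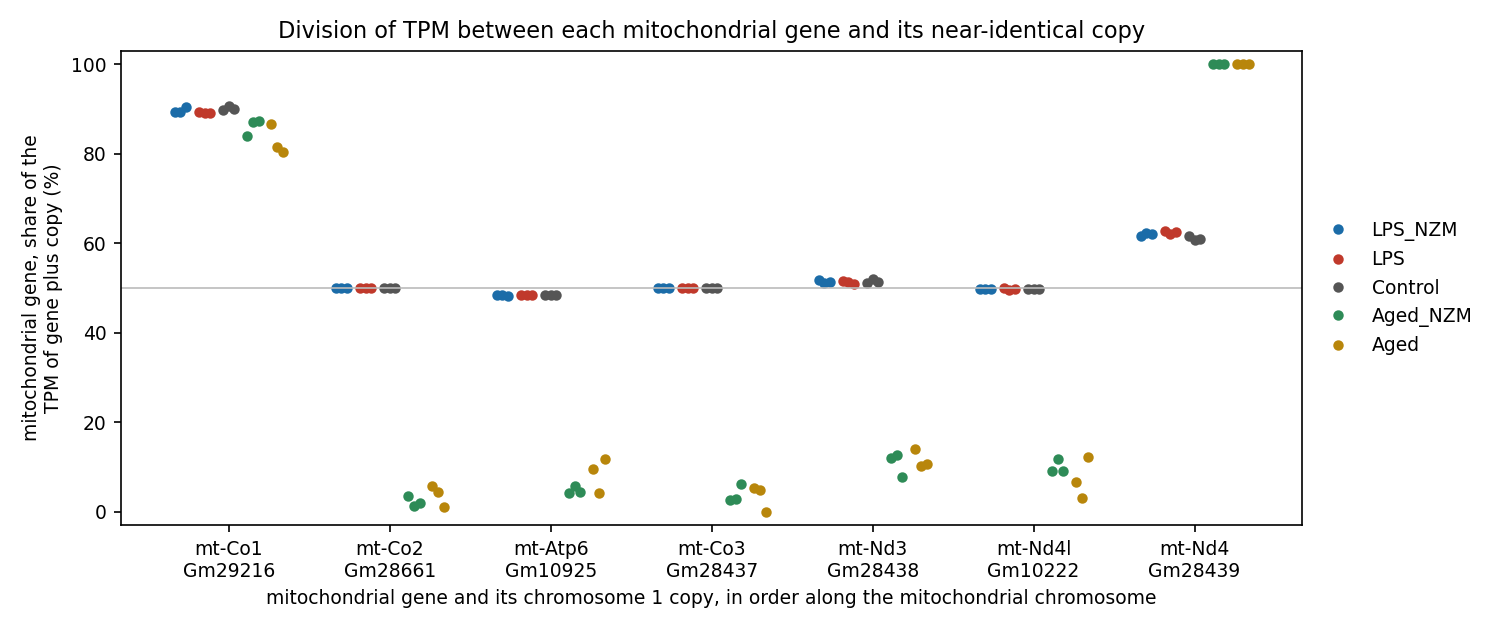
Share of the summed TPM of a mitochondrial gene and its chromosome 1 copy that was listed under the mitochondrial gene, in percent, for 7 pairs in order along the mitochondrial chromosome; each point is a library, coloured by group. The 9 BMDM libraries sit near the line at 50% for the 5 genes copied at almost whole length, where the 6 BMSC libraries lie at or below 14.1%.

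The transfer RNAs were nearly absent from the BMSC values. Of the 22 transfer RNA genes, 18 were listed at 0 in all 6 BMSC libraries, and the other 4 (mt-Tq, mt-Tn, mt-Ts1 and mt-Tp) were above 0 in 6 of the 132 values, at no more than 1.61 TPM. In BMDM, 20 of the 22 were above 0 in all 9 libraries; mt-Tq was at 0 in 2 LPS libraries and mt-Tv in 1 Control library. The difference in listing was not particular to mitochondrial genes: of 953 identifiers of any kind with a transcript of at most 80 bases, 3.15% were above 0 in a BMSC library and 53.1% in a BMDM library, whereas for 37987 identifiers over 600 bases the shares were 67.8% in a BMSC and 64.4% in a BMDM library. The protein genes and ribosomal RNAs were above 0 in every library of both cell types. A 0 for a transfer RNA in BMSC is a listing in this table and says nothing on whether the RNA was in the cells.

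Within BMDM, transfer RNA levels ran from a median of 1.21 TPM for mt-Tv to 701 TPM for mt-Ts1 and differed by coding strand. mt-Ts1, a serine transfer RNA, was highest with 607 to 764 TPM over the 9 libraries, followed by mt-Tl1, a leucine transfer RNA, with 206 to 438 TPM. mt-Te for glutamate had 115 to 195 TPM and mt-Tp for proline 88.0 to 119 TPM. The sequences of the leading pair, both shown whole and in lower case, are short enough to fall below the usual fragment length of such libraries.
mt-Ts1: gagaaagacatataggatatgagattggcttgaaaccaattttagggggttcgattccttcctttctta
mt-Tl1: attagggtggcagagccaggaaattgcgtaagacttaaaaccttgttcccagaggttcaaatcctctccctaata
Of the 8 transfer RNAs with the highest median in BMDM, 7 are encoded on the strand opposite to mt-Nd1, where 8 of the 22 lie. The medians of these 8 genes ran from 9.49 to 701 TPM with a middle value of 52.4 TPM, against 1.21 to 355 TPM with a middle value of 5.68 TPM for the 14 genes on the strand of mt-Nd1. mt-Tn, mt-Ta, mt-Ty and mt-Tc, which form a block between mt-Nd2 and mt-Co1, had medians of 54.6, 50.3, 44.2 and 34.2 TPM. mt-Ts1 follows mt-Co1 on the opposite strand and stood at 6.35% ± 0.20 of the TPM of mt-Co1 in LPS_NZM, 6.50% ± 0.03 in LPS and 6.08% ± 0.26 in Control libraries (SD, n = 3 each). The library kit keeps strand, but the strand setting of the counting is not given in the sources used here, so reads of these genes and of mRNA antisense to them cannot be told apart.

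**Figure D2:**
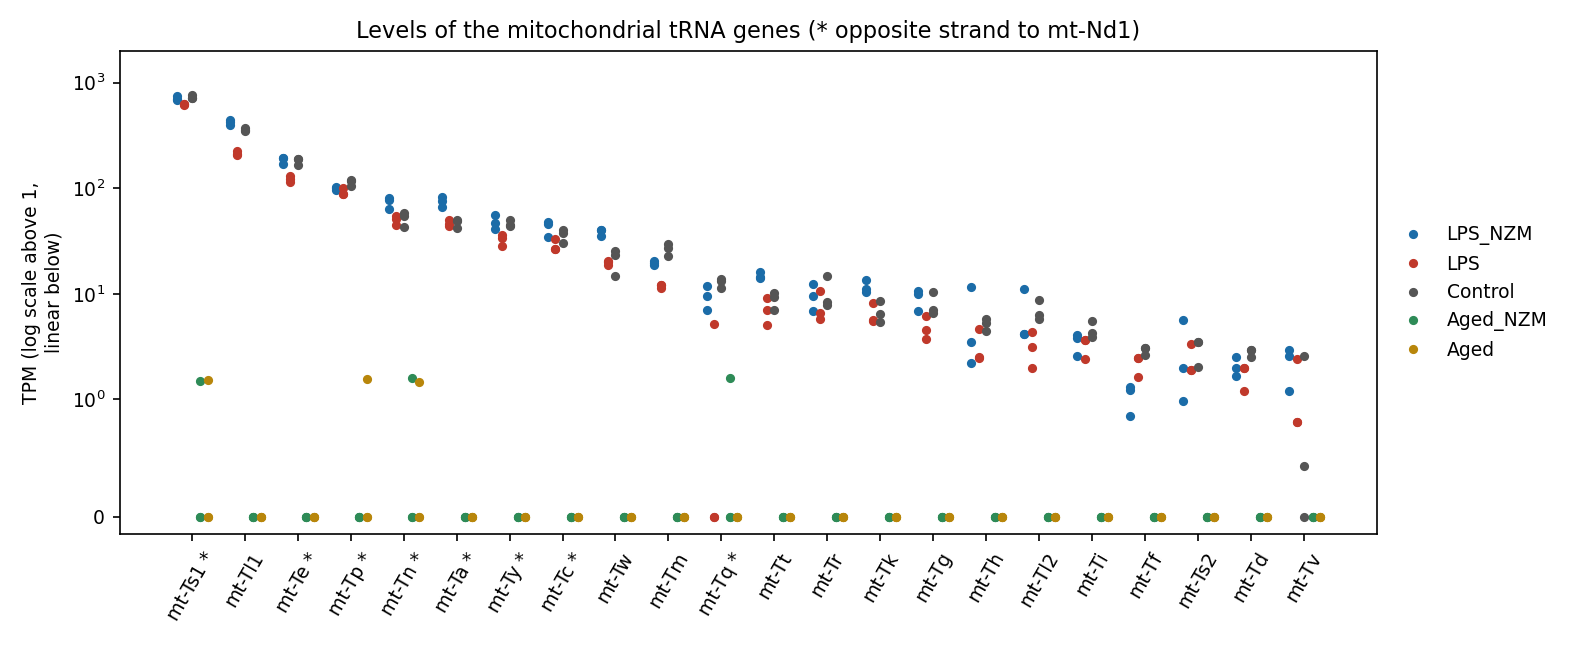
TPM of each of the 22 mitochondrial transfer RNA genes in every library (log scale above 1 and linear below), ordered by the median over the 9 BMDM libraries; points are libraries coloured by group, and an asterisk marks genes on the strand opposite to mt-Nd1. mt-Ts1 and mt-Tl1 lead in BMDM, and the BMSC points lie at 0 except for 6 values of at most 1.61 TPM.

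The protein genes took 4.03% ± 0.17 of all TPM in Aged_NZM and 1.03% ± 0.01 in Aged libraries (SD, n = 3 each), and 3.49% ± 0.08 in LPS_NZM, 2.83% ± 0.08 in LPS and 3.89% ± 0.04 in Control libraries. With the 7 chromosome 1 copies included, the shares were 7.47% ± 0.26 in Aged_NZM, 1.74% ± 0.07 in Aged, 4.64% ± 0.08 in LPS_NZM, 3.78% ± 0.11 in LPS and 5.17% ± 0.02 in Control libraries. The share of the 13 genes was 3.904-fold higher in Aged_NZM than in Aged, 1.24-fold higher in LPS_NZM than in LPS and 1.38-fold lower in LPS than in Control libraries. In each of these comparisons the 3 libraries of a group lay apart from the other 3, which gives a two-sided exact permutation p of 0.1, the smallest that 3 against 3 libraries allow. The 2 ribosomal RNAs took 0.117% ± 0.009 in Aged_NZM and 0.414% ± 0.023 in Aged libraries, and 0.0735% ± 0.0229 in LPS_NZM, 0.0573% ± 0.0034 in LPS and 0.0600% ± 0.0056 in Control libraries. The 22 transfer RNAs took 0.180% ± 0.008 in LPS_NZM, 0.128% ± 0.002 in LPS and 0.169% ± 0.005 in Control libraries.

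**Figure D3:**
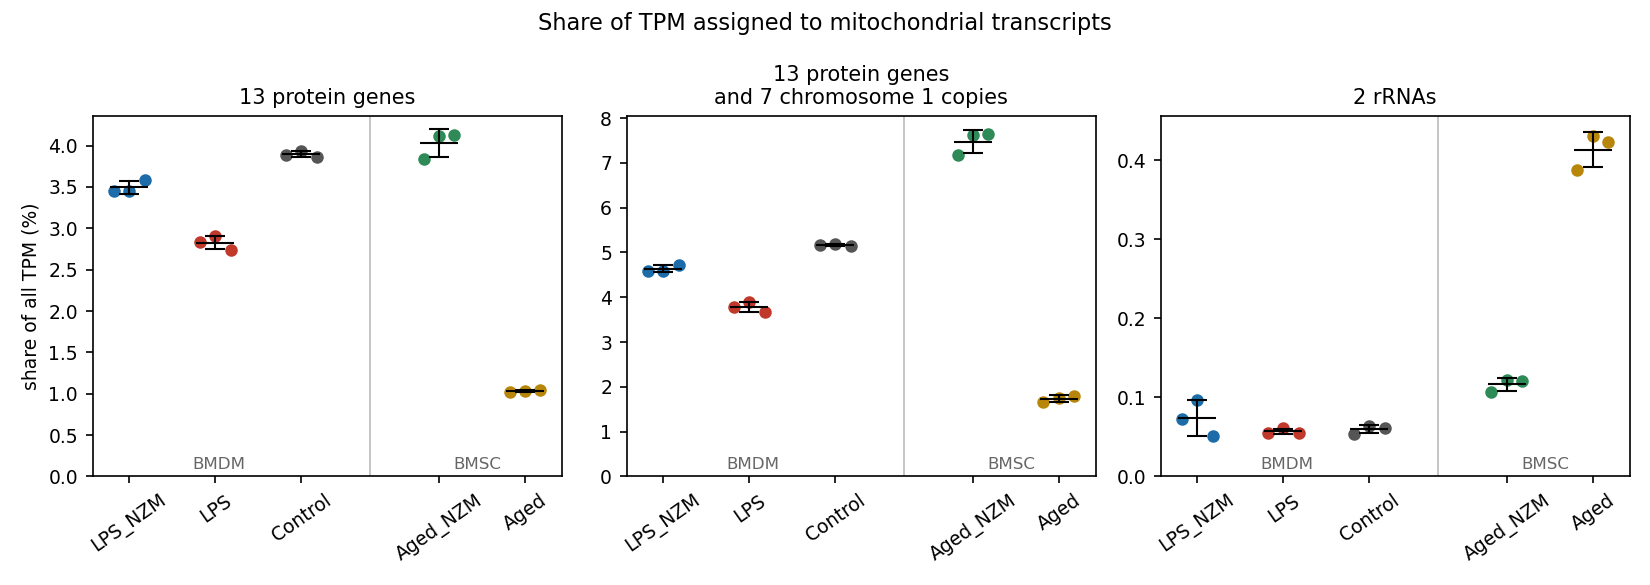
Share of all TPM, in percent, of the 13 protein genes (left), of these with the 7 chromosome 1 copies (middle) and of the 2 ribosomal RNAs (right); points are libraries, coloured by group, and bars are the mean and SD. The protein share averages 4.03% in Aged_NZM and 1.03% in Aged, whereas the ribosomal RNA share averages 0.117% in Aged_NZM and 0.414% in Aged.

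mt-Co1, the largest subunit of cytochrome c oxidase, was the highest of the 15 protein and ribosomal RNA genes in each of the 5 groups, with a mean of 12910 TPM in Aged_NZM, 3275 in Aged, 11201 in LPS_NZM, 9541 in LPS and 12071 in Control libraries. With copies added, mt-Co2, mt-Atp6 and mt-Co3 came next in the 3 BMDM groups, and their ranges overlapped for mt-Co3 and mt-Co2 in LPS_NZM, for mt-Atp6 and mt-Co3 in LPS, and for mt-Co2 with both others in Control libraries. In Aged_NZM libraries mt-Co2 came second with 12840 TPM and mt-Co3 followed with 9606 TPM. In Aged libraries mt-Co2 with its copy (2529 TPM) overlapped the ribosomal RNA mt-Rnr1 (2363 TPM). mt-Nd3, a small membrane subunit of complex I, had the lowest mean in the BMDM groups with 198, 140 and 199 TPM in LPS_NZM, LPS and Control libraries, copy included, though its range overlapped that of mt-Rnr1 in LPS_NZM, and it reached 1500 TPM in Aged_NZM and 432 TPM in Aged libraries.

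**Figure D4:**
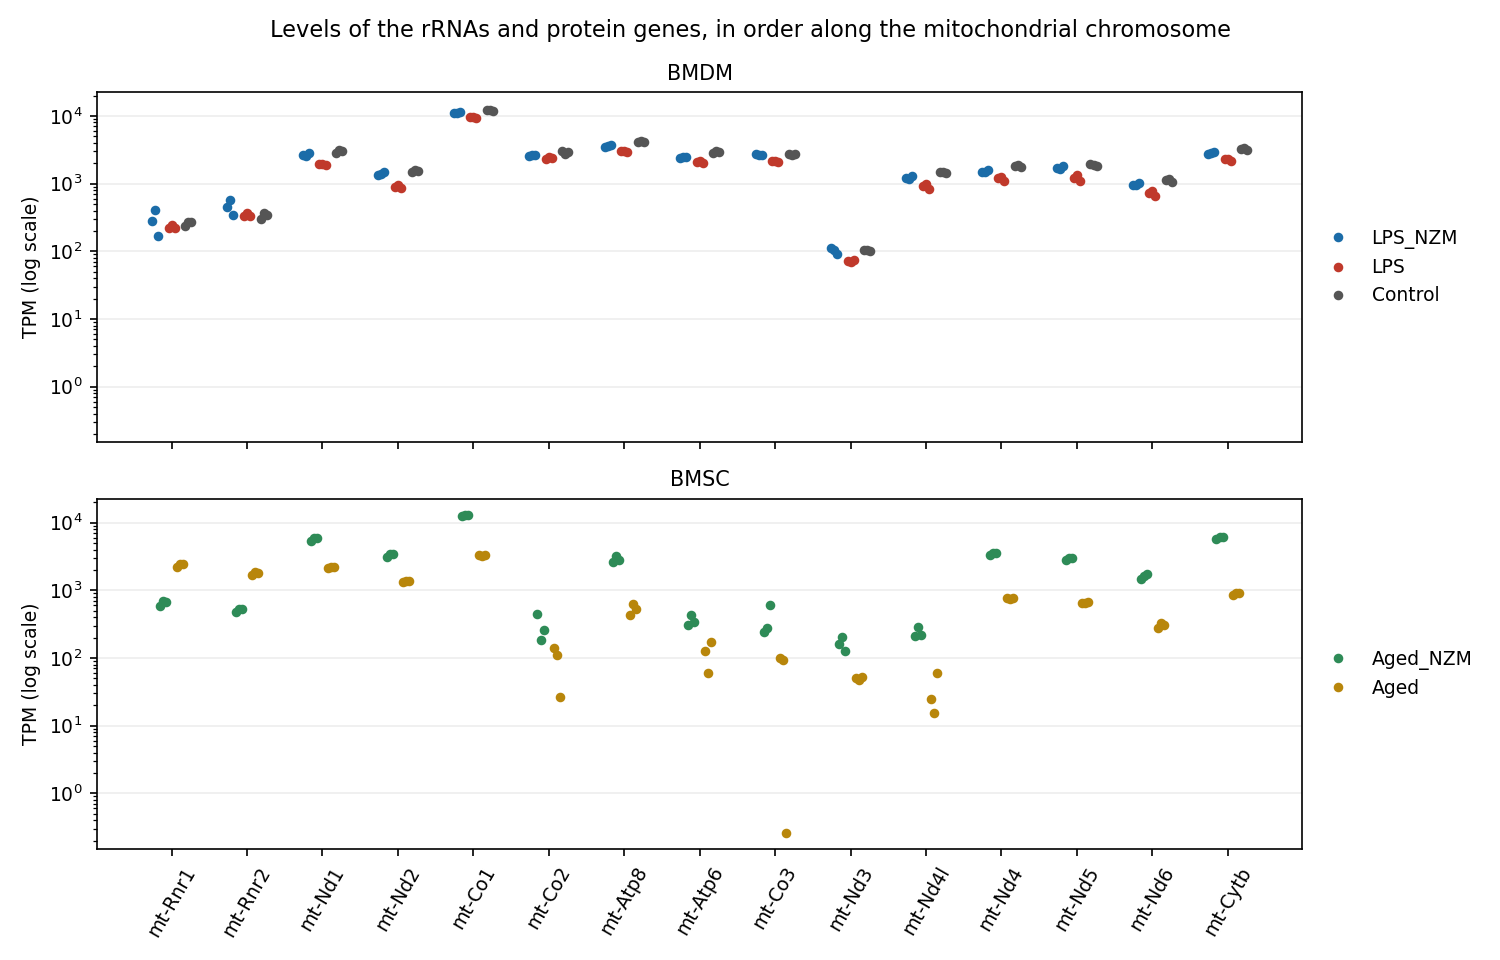
TPM on a log scale of the 2 ribosomal RNAs and 13 protein genes, in order along the mitochondrial chromosome and without the copies, in BMDM (upper panel) and BMSC (lower panel); each point is a library, coloured by group. The 5 genes with almost whole-length copies lie low and scattered in BMSC, where Aged_NZM lies above Aged for all 13 protein genes and below it for both ribosomal RNAs.

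Gene by gene and without the copies, the complex I genes followed 1 pattern in BMDM, lowest in LPS. mt-Nd1 averaged 2663 ± 130 TPM in LPS_NZM, 1935 ± 34.4 TPM in LPS and 3001 ± 118 TPM in Control libraries (SD, n = 3 each here and in the next sentences). mt-Nd4, a core membrane subunit, averaged 1522 ± 56.4 TPM in LPS_NZM, 1179 ± 92.9 TPM in LPS and 1809 ± 58.1 TPM in Control libraries. mt-Nd5, the most distal of the large membrane subunits, averaged 1703 ± 76.5 TPM in LPS_NZM, 1213 ± 111 TPM in LPS and 1886 ± 87.6 TPM in Control libraries. In BMSC both of these were higher in Aged_NZM. mt-Nd4 averaged 3481 ± 180 TPM in Aged_NZM and 763 ± 7.24 TPM in Aged libraries. mt-Nd5 averaged 2956 ± 104 TPM in Aged_NZM and 658 ± 6.13 TPM in Aged libraries. The smaller complex I genes mt-Nd6, mt-Nd4l and mt-Nd3 were also lowest in LPS among the BMDM groups and higher in Aged_NZM than in Aged libraries. mt-Nd6 averaged 985 ± 38 TPM in LPS_NZM, 717 ± 63.6 TPM in LPS and 1114 ± 42.8 TPM in Control libraries, and 1610 ± 126 TPM in Aged_NZM and 305 ± 28.5 TPM in Aged libraries. mt-Nd4l averaged 1225 ± 49.7 TPM in LPS_NZM, 911 ± 73.7 TPM in LPS and 1464 ± 41.3 TPM in Control libraries, and 239 ± 44.4 TPM in Aged_NZM and 33.3 ± 23.4 TPM in Aged libraries. mt-Nd3 averaged 102 ± 10.8 TPM in LPS_NZM, 71.9 ± 3.16 TPM in LPS and 102.96 ± 1.12 TPM in Control libraries, and 163 ± 38.3 TPM in Aged_NZM and 50.2 ± 2.48 TPM in Aged libraries. Outside complex I, the ATP synthase genes and the other cytochrome c oxidase genes were likewise lowest in LPS among the BMDM groups. mt-Cytb averaged 2848 ± 106 TPM in LPS_NZM, 2242 ± 71.3 TPM in LPS and 3213 ± 81.7 TPM in Control libraries. mt-Atp8 averaged 3575 ± 134 TPM in LPS_NZM, 2980 ± 71.5 TPM in LPS and 4206 ± 86.5 TPM in Control libraries, and 2875 ± 346 TPM in Aged_NZM and 528 ± 102 TPM in Aged libraries. mt-Atp6, which forms part of the proton channel, averaged 2426 ± 18.9 TPM in LPS_NZM, 2088 ± 50.9 TPM in LPS and 2931 ± 64.3 TPM in Control libraries, and 359 ± 66.2 TPM in Aged_NZM and 120 ± 56.2 TPM in Aged libraries. In BMSC Gm10925 held most of the TPM of that pair. mt-Co2 averaged 2629 ± 42.5 TPM in LPS_NZM and 2368 ± 71 TPM in LPS libraries, and 298 ± 137 TPM in Aged_NZM and 92.6 ± 58.9 TPM in Aged libraries. mt-Co3, a core subunit of cytochrome c oxidase, averaged 2661 ± 44.9 TPM in LPS_NZM, 2123 ± 36.9 TPM in LPS and 2712 ± 62.6 TPM in Control libraries.

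After NZM in BMSC, all 13 protein genes rose and both ribosomal RNAs fell. mt-Cytb, the mitochondrially encoded subunit of complex III, had 5769, 6048 and 6032 TPM in Aged_NZM libraries, against 858, 913 and 925 TPM in Aged libraries, which is a 6.62-fold rise (log2 change 2.73, SE 0.04, adjusted p = 2.72e-10 by limma over 13865 tested genes). mt-Nd1, a core membrane subunit of complex I, had 5361, 5847 and 5968 TPM in Aged_NZM libraries, against 2112, 2171 and 2219 TPM in Aged libraries, a 2.64-fold rise (log2 change 1.40, SE 0.05, adjusted p = 1.19e-08). The 2 groups did not overlap for any of the 13 genes, and of all tested genes 22.8% were higher and 51.1% lower without overlap. Higher calls were made for 21.6% of all tested genes and lower calls for 48.9%, and the median change of all tested genes was -0.18 on the log2 scale, against a median of 2.17 for the 13. With every library centred on its median, all 13 were still called higher, beside 31.1% of all tested genes called higher and 35.4% lower.

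The size of the rise differed from gene to gene. mt-Nd2, another membrane subunit of complex I, rose least at 2.45-fold (log2 change 1.29, SE 0.04), and mt-Co1 rose 3.94-fold (log2 change 1.98, SE 0.04). The late complex I genes mt-Nd4, mt-Nd5 and mt-Nd6 rose 4.56-fold, 4.49-fold and 5.26-fold, and mt-Atp8, a small subunit of the ATP synthase membrane part, rose 5.48-fold. For the divided genes, the value alone gave log2 changes of 1.88 (SE 0.54) for mt-Co2, 1.68 (SE 0.31) for mt-Atp6, 1.66 (SE 0.14) for mt-Nd3 and 3.01 (SE 0.38) for mt-Nd4l. With the copies added these were 2.34 (SE 0.04), 2.40 (SE 0.05), 1.80 (SE 0.11) and 2.42 (SE 0.11), with adjusted p of 4.78e-07 or less. The 13 changes with copies added ran from 1.29 to 2.73 around a median of 2.33.

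The change of mt-Co3 in BMSC had the largest SE of the 13 protein genes. mt-Co3 had 242, 275 and 608 TPM in Aged_NZM libraries, against 98.7, 94.2 and 0.26 TPM in Aged libraries. The log2 change was 3.91 (SE 1.41, adjusted p = 0.0319 by limma), and without Aged replicate 3, whose value was 0.26, it was 1.82 (adjusted p = 0.00067). The call was lost with no filter on low values (adjusted p = 0.131), with no mean-variance trend (0.0769) and without any of the Aged_NZM replicates, the last with adjusted p of 0.0568, 0.0510 and 0.0864 without replicates 1, 2 and 3. With Gm28437 added, mt-Co3 averaged 9606 ± 323 TPM in Aged_NZM and 1911 ± 34 TPM in Aged libraries (SD, n = 3 each), with a log2 change of 2.33 (SE 0.04, adjusted p = 2.4e-10), between those of its neighbours.

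The TPM values of the ribosomal RNAs moved against those of the mRNAs that share their precursor. The libraries were poly(A)-selected, and whether capture of the ribosomal RNAs differed between the groups was not tested. mt-Rnr1, the RNA of the small mitochondrial ribosomal subunit, had 595, 691 and 679 TPM in Aged_NZM libraries, against 2220, 2448 and 2420 TPM in Aged libraries (log2 change -1.85, SE 0.06, adjusted p = 1.19e-08). mt-Rnr2, the RNA of the large subunit, had 470, 534 and 526 TPM in Aged_NZM libraries, against 1658, 1857 and 1804 TPM in Aged libraries (log2 change -1.80, SE 0.06, adjusted p = 1.09e-08). Both were 3.47-fold to 3.61-fold lower after NZM, with no overlap. mt-Rnr2 stood at 8.91% ± 0.20 of the TPM of mt-Nd1 in Aged_NZM and at 81.8% ± 3.6 in Aged libraries (SD, n = 3 each), whereas the BMDM groups averaged between 11.2% and 17.9%. Among the mRNAs, mt-Cytb stood at 104% ± 3 of mt-Nd1 in Aged_NZM and at 41.5% ± 0.7 in Aged libraries, and the BMDM groups averaged 107% to 116%. Aged thus lay apart from the other 4 groups for these pairs of genes, both of which include mt-Nd1. Other pairs split by cell type instead. mt-Rnr1 averaged 128.3% of mt-Rnr2 in Aged_NZM and 133.3% in Aged libraries, against 61.4% to 77.8% in the BMDM groups. The ratio of mt-Nd5 to mt-Nd4 was also lower in both BMSC groups than in the BMDM groups, but mt-Nd4 is a divided gene.

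Along the chromosome, the 2 protein genes that follow the ribosomal RNAs, mt-Nd1 and mt-Nd2, had the smallest rises and mt-Cytb, the last protein gene in map order, had the largest with copies added. Across the 13 protein genes, map order and log2 change had a Spearman rho of 0.60 for the genes alone and of 0.52 with copies added. In the comparisons within BMDM the same rho ran from -0.30 to 0.19. These are descriptions over 13 genes that share libraries, precursor RNAs and, for 7 of them, a copy. mt-Nd6, the only protein gene on the opposite strand, stood at 54.4% ± 2.4 of mt-Nd5 in Aged_NZM and 46.4% ± 4.3 in Aged libraries, and at 57.9% to 59.1% on average in the BMDM groups; reads of it and of antisense precursor cannot be told apart here.

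**Figure D5:**
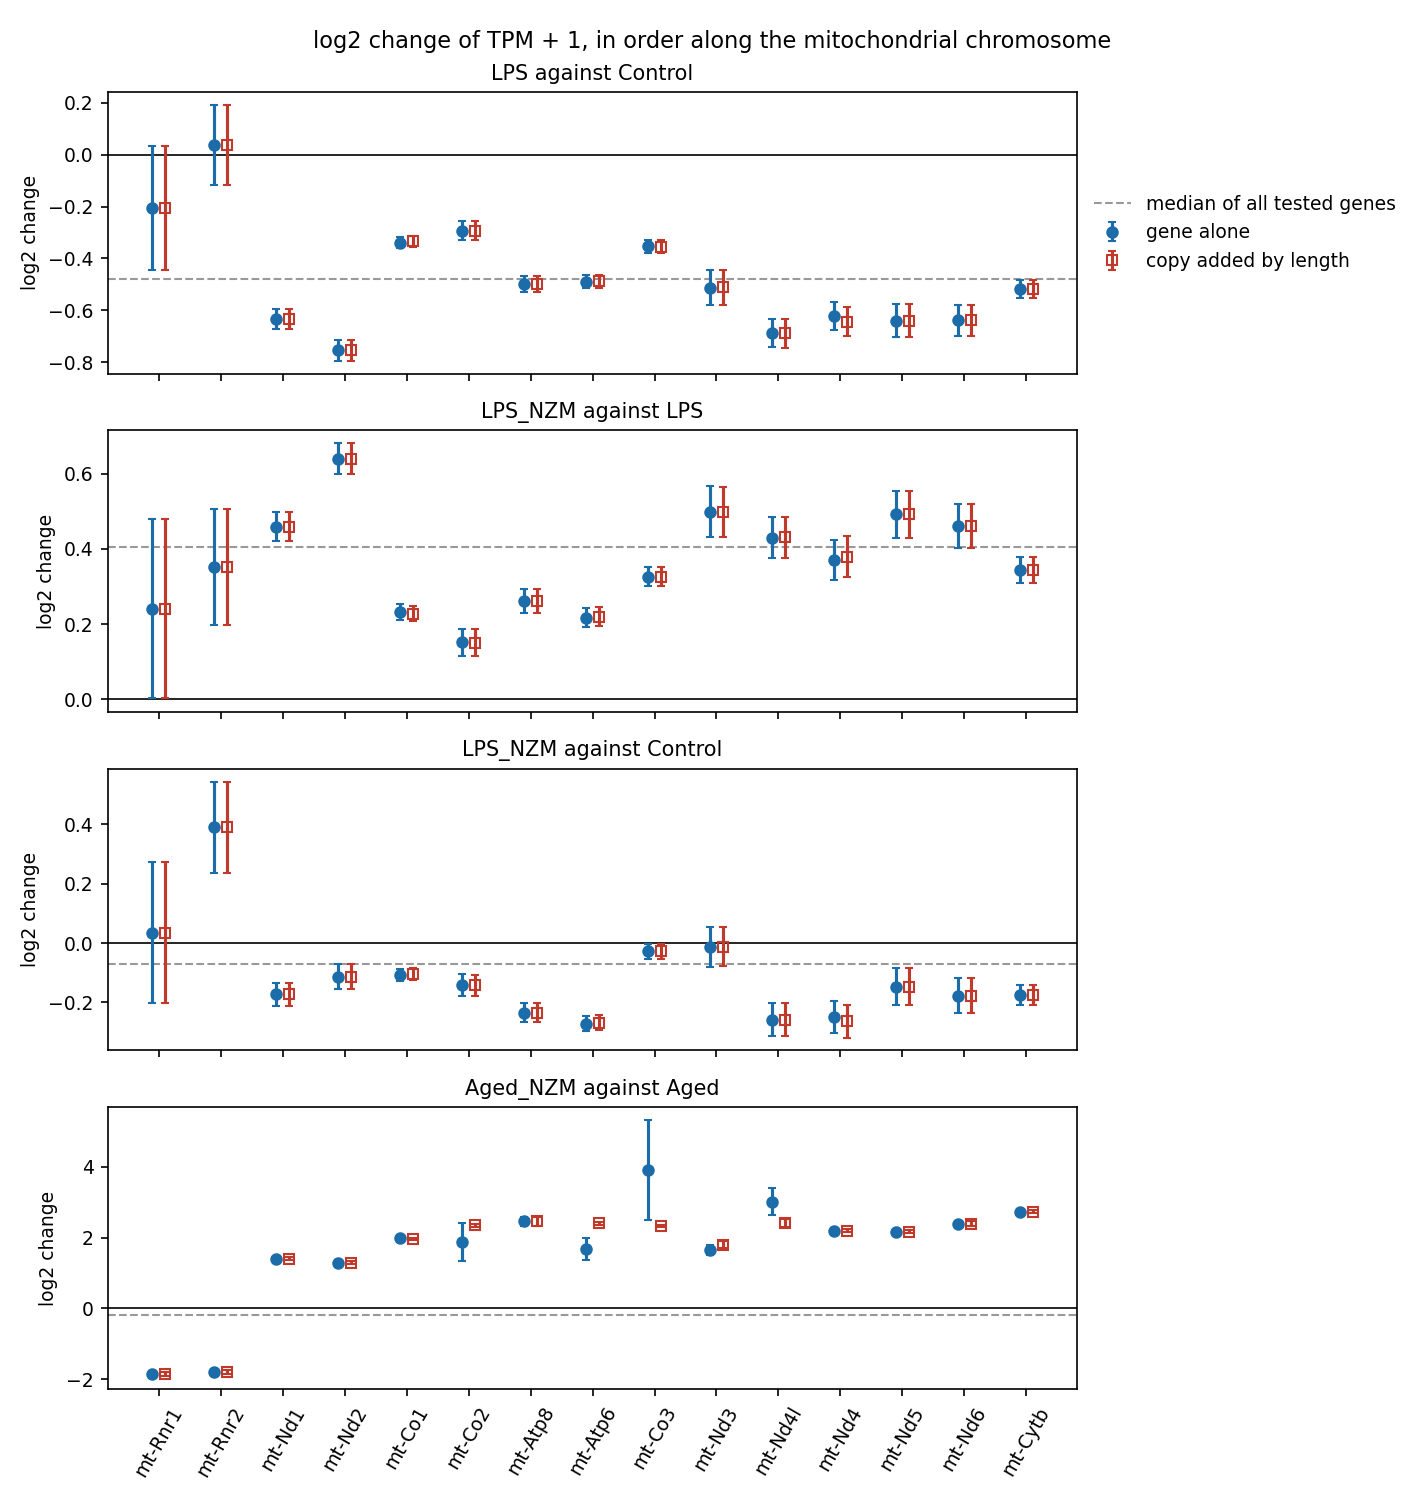
Log2 change of TPM + 1 for the ribosomal RNAs and protein genes in order along the mitochondrial chromosome in 4 comparisons, with bars of 1 SE from limma; filled circles are genes alone, open squares have the copy added by length, and the dashed line is the median of all tested genes. The BMSC panel runs from -1.85 for mt-Rnr1 to 2.73 for mt-Cytb among genes without a copy above the cut-off. In the other panels the protein genes gather around the dashed line.

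Other RNA classes moved with these values in BMSC, and their part in the result was not tested. Of 8 stromal markers, 7 were tested and all 7 were called higher in Aged_NZM, where the list summed to between 4141 and 4227 TPM, against 1253 to 1352 TPM in Aged libraries. The 8 macrophage markers summed to 107 to 120 TPM in Aged_NZM and 121.2 to 129.4 TPM in Aged libraries, of which Cd14 made up most at a mean of 93.7 TPM in Aged_NZM and 94.2 TPM in Aged libraries. Of these 8, Adgre1, Fcgr1 and C1qa stood at no more than 0.14 TPM, and Cd68 averaged 13.03 TPM in Aged_NZM and 24.9 TPM in Aged libraries and was called lower (log2 change -0.88). Of 19 identifiers listed for RNAs that mostly lack a poly(A) tail, mainly histone mRNAs, 6 were tested and 5 were called higher. The list summed to 114 to 124 TPM in Aged_NZM and 30.2 to 41.5 TPM in Aged libraries. Of this, Hist1h2bc made up most, with a mean of 77.9 TPM in Aged_NZM and 18.2 TPM in Aged libraries. Whether these RNAs carried a tail in these cells was not tested. Of 5 nuclear-retained RNAs, 3 were tested and 2, Malat1 and Neat1, were called higher, with log2 changes of 0.50 and 0.25. Kcnq1ot1 was not called and averaged 0.99 TPM in Aged_NZM and 1.32 TPM in Aged libraries. Of the 7 chromosome 1 copies, 6 were tested in BMSC and all 6 were called higher, with a median log2 change of 2.34. For comparison, 21.6% of all tested genes were called higher and 48.9% lower.

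In BMDM treated with LPS, the protein genes fell by about as much as the median gene. All 13 were called lower than in Control, with log2 changes from -0.75 to -0.29 and a median of -0.52. Lower calls were made for 65.6% of all 14486 tested genes and higher calls for 15.2%, and the median change of all tested genes was -0.48. mt-Co1 had 9582, 9681 and 9362 TPM in LPS libraries, against 12065, 12169 and 11979 TPM in Control libraries, a log2 change of -0.34 (SE 0.02, adjusted p = 1.54e-07). mt-Nd2 had 901, 944 and 857 TPM in LPS libraries, against 1480, 1562 and 1514 TPM in Control libraries, a log2 change of -0.75 (SE 0.04, adjusted p = 6.50e-08). No protein gene overlapped between LPS and Control, and of all tested genes 66.2% were lower and 15.6% higher without overlap.

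Relative to the median gene, 3 protein genes were higher and 2 lower after LPS. With every library centred on the median of its tested genes, 36.5% of all tested genes were called higher and 29.1% lower. The 3 cytochrome c oxidase genes mt-Co1, mt-Co2 and mt-Co3 were then higher, with centred log2 changes of 0.21, 0.25 and 0.19. The complex I genes mt-Nd2 and mt-Nd4l were lower at -0.21 and -0.14, and the other 8 were not called. mt-Co1 stood at 1060% ± 33 of the TPM of mt-Nd2 in LPS and at 795% ± 18 in Control libraries (SD, n = 3 each), with no overlap. This ratio does not depend on the scaling of the library.

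The ribosomal and transfer RNAs followed LPS less evenly. Neither ribosomal RNA was called as deposited: mt-Rnr1 averaged 227 ± 15 TPM in LPS and 262 ± 19 TPM in Control libraries, and mt-Rnr2 averaged 346 ± 19 TPM in LPS and 338 ± 36.5 TPM in Control libraries (SD, n = 3 each). Relative to the median gene, mt-Rnr2 was higher (centred log2 change 0.58, adjusted p = 0.00933). Of the 22 transfer RNAs, 10 were lower as deposited and none higher, against 3 lower and 6 higher after centring. Of all tested genes, 65.6% were lower and 15.2% higher as deposited, against 29.1% lower and 36.5% higher after centring. mt-Tl1 had 225, 206 and 212 TPM in LPS libraries, against 350, 368 and 355 TPM in Control libraries (log2 change -0.74, adjusted p = 9.36e-08), and it stayed lower after centring at -0.19. mt-Tq was at 0, 5.14 and 0 TPM in LPS libraries, against 13.3, 13.8 and 11.3 TPM in Control libraries. The calls for mt-Tg, mt-Tl2 and mt-Td, all at no more than 10.4 TPM in these 6 libraries, were lost without LPS replicate 2, with adjusted p of 0.0709, 0.0830 and 0.0523, and those for mt-Tg and mt-Tl2 also without a Control replicate, at 0.0718 and 0.0713.

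Adding NZM to LPS raised the deposited values of all 13 protein genes above LPS alone. The log2 changes ran from 0.15 to 0.64 with a median of 0.37, and the median change of all tested genes was 0.40. Higher calls were made for 60.4% of all tested genes and lower calls for 16.9%. mt-Nd2 changed most, with 1361, 1380 and 1471 TPM in LPS_NZM libraries, against 901, 944 and 857 TPM in LPS libraries (log2 change 0.64, SE 0.04, adjusted p = 2.28e-07). mt-Co2 changed least, with 2584, 2635 and 2669 TPM in LPS_NZM libraries, against 2293, 2434 and 2376 TPM in LPS libraries (log2 change 0.15, SE 0.04, adjusted p = 0.00317, and 0.812 in the fit of all 15 libraries). After centring on the median gene, with 29.8% of all tested genes called higher and 35.3% lower, mt-Nd2 alone was higher (0.18), and mt-Co1, mt-Co2, mt-Co3, mt-Atp6, mt-Atp8 and mt-Cytb were lower, by -0.31 to -0.12.

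Among the 22 transfer RNAs, 13 were higher in LPS_NZM than in LPS and mt-Tf, for phenylalanine, was lower. This was near the share of all tested genes, of which 60.4% were higher and 16.9% lower. After centring 5 transfer RNAs were higher and 3 lower, beside 29.8% of all tested genes higher and 35.3% lower. mt-Tl1 had 438.0, 400.8 and 426.4 TPM in LPS_NZM libraries, against 225, 206 and 212 TPM in LPS libraries, and it was higher on both scales (log2 change 0.97 as deposited and 0.51 centred, adjusted p = 1.10e-08 and 2.90e-06). mt-Tf had 1.23, 0.86 and 1.30 TPM in LPS_NZM libraries, against 2.48, 1.65 and 2.46 TPM in LPS libraries, and was lower on both scales (-0.58 and -1.04). The ribosomal RNAs were not called in the full set. mt-Rnr1 had 281, 401.7 and 171 TPM in LPS_NZM libraries, against 219, 244 and 218 TPM in LPS libraries. LPS_NZM replicate 3 was the lowest of the 9 BMDM libraries for mt-Rnr1, and without it both ribosomal RNAs were called higher than in LPS (log2 change 0.56, adjusted p = 0.00410 for mt-Rnr1 and 0.54, adjusted p = 0.00195 for mt-Rnr2).

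Set against Control, the protein genes in LPS_NZM libraries were slightly lower. As deposited 10 of the 13 were lower, with mt-Co3, mt-Nd3 and mt-Nd5 not called, against 5 lower in the fit of all 15 libraries. The 13 changes ran from -0.27 to -0.01 around a median of -0.17 (median of all tested genes -0.07). Lower calls were made for 29.1% of all tested genes and higher calls for 18.6%. The ATP synthase gene mt-Atp6 changed most, with 2404, 2433 and 2439 TPM in LPS_NZM libraries, against 2859, 2984 and 2949 TPM in Control libraries (log2 change -0.27, SE 0.03, adjusted p = 1.51e-05, and 0.440 in the fit of all 15 libraries). After centring, where 24.9% of all tested genes were higher and 22.0% lower, mt-Atp6, mt-Atp8, mt-Nd4, mt-Nd4l and mt-Cytb were lower. The calls for mt-Nd2 (adjusted p = 0.0460) and mt-Nd6 (adjusted p = 0.0324) were each lost without any of 4 single libraries, namely LPS_NZM replicates 1 and 2 and Control replicates 2 and 3 for mt-Nd2 (adjusted p 0.0843 to 0.151) and LPS_NZM replicates 1 and 2 and Control replicates 1 and 2 for mt-Nd6 (0.0724 to 0.103). Of the transfer RNAs, mt-Tl1, mt-Tw, mt-Ta, mt-Tn, mt-Tk and mt-Tt were higher and mt-Tf, mt-Tm and mt-Tp lower; for mt-Tp the call was lost without any of 5 single libraries (adjusted p 0.0602 to 0.127), namely the 3 of LPS_NZM and Control replicates 2 and 3. mt-Ti, mt-Tr, mt-Th, mt-Ts2 and mt-Tv, at no more than 14.8 TPM in any BMDM library, passed the test in none of the 3 comparisons as deposited. The 3 BMDM comparisons share their libraries pairwise, so their values are not independent of each other. The 8 neutrophil markers moved with these comparisons: they summed to 1934 to 2323 TPM in LPS_NZM, 2221 to 2444 TPM in LPS and 1488 to 1682 TPM in Control libraries. Of the 8, 4 were higher and 2 lower in LPS than in Control, beside 15.2% of all tested genes higher and 65.6% lower. In LPS_NZM against LPS, 3 were higher and 3 lower, beside 60.4% of all tested genes higher and 16.9% lower. In LPS_NZM against Control, 5 were higher and none lower, beside 18.6% of all tested genes higher and 29.1% lower. The part of these markers in the results was not tested.

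The response to NZM in BMSC differed from that in BMDM for most protein genes. In a fit of all 15 libraries, the change in Aged_NZM against Aged was larger than that in LPS_NZM against LPS for 12 of the 13 protein genes, and for all 13 with copies added, where the differences of log2 changes ran from 0.65 for mt-Nd2 to 2.38 for mt-Cytb. For mt-Nd4l alone the difference was 2.58 (SE 0.45), against 1.99 (SE 0.14) with its copy added. For mt-Cytb the changes were 2.73 in BMSC and 0.34 in BMDM, which differed by 2.38 (SE 0.05, adjusted p = 7.22e-14 over 16696 tested genes). mt-Co3 differed by 3.59 (SE 1.65) and was not called (adjusted p = 0.0654), but with its copy added it differed by 2.00 (SE 0.04, adjusted p = 3.3e-14). For mt-Rnr1 and mt-Rnr2 the difference was -2.09 and -2.15, with adjusted p of 1.41e-05 and 1.48e-07. Higher calls for this difference were made for 17.2% of all tested genes and lower calls for 54.8%, and its median over all tested genes was -0.45. The tested genes include some listed at or near 0 in 1 cell type, where the difference is mainly the response of the other. Among them were the 22 transfer RNAs, of which 11 were called lower and 1 higher. The cell type, the model drug and the way the table lists short and copied transcripts all differ between the 2 sides and cannot be told apart.

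The nuclear genes that serve the mitochondrial chromosome moved otherwise than its mRNAs in BMSC. The nuclear lists were taken from textbook roles. Of 20 genes for mitochondrial RNA processing and stability, 17 were lower in Aged_NZM than in Aged and none was higher; after centring 17 were lower and 2 higher. They included Trmt10c, a subunit of the RNase P that cuts the 5′ ends of transfer RNAs (12.8 ± 0.7 TPM in Aged_NZM and 29.2 ± 0.5 TPM in Aged libraries, log2 change -1.13, adjusted p = 1.14e-07), and Elac2, which cuts their 3′ ends (32.2 ± 1.0 TPM in Aged_NZM and 62.9 ± 2.3 TPM in Aged libraries, log2 change -0.95, adjusted p = 1.03e-07; SD, n = 3 each). Of 11 genes for transcription and packaging of the chromosome, 7 were lower and 1 higher (6 and 1 after centring), among them Tfam, which packages the DNA and starts transcription, at 25.5 ± 2.1 TPM in Aged_NZM and 40.8 ± 0.9 TPM in Aged libraries. Of 15 mitochondrial translation factors, 15 were lower (10 after centring), and of 22 aminoacyl-tRNA synthetase genes, 19 were lower and 1 higher (14 and 2 after centring). The mitochondrial stress response list had 16 of 18 genes lower and none higher (14 and none after centring), with Trib3 at 30.5 ± 2.2 TPM in Aged_NZM and 106 ± 6 TPM in Aged libraries and Chac1 at 43.8 ± 1.8 TPM in Aged_NZM and 147 ± 5 TPM in Aged libraries. Of all tested genes, 48.9% were called lower as deposited and 35.4% after centring.

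The nuclear partners of the mitochondrial subunits were called in both directions in BMSC, where 21.6% of all tested genes were higher and 48.9% lower as deposited (31.1% and 35.4% after centring). Of 36 nuclear complex I subunits, 11 were higher and 10 lower in Aged_NZM (21 higher and 6 lower after centring), with a median log2 change of 0.05. Ndufa13 and Ndufa6, accessory subunits of complex I, rose by log2 changes of 0.60 and 0.56. Of 9 nuclear complex III subunits 2 were higher and 5 lower (4 and 3 after centring). Of 13 tested nuclear complex IV subunits 4 were higher and 4 lower (6 and 1 after centring), and Cox5a changed by -0.61. Of 16 tested ATP synthase subunits 5 were higher and 5 lower (7 and 2 after centring), and Atp5b, the catalytic beta subunit, changed by -0.49. For complex II, which has no mitochondrially encoded subunit, 2 of 4 genes were higher and 1 lower (3 and 1 after centring). The median changes of the nuclear subunit lists of complexes I to V ran from -0.23 to 0.05, against 2.17 for the 13 mitochondrial genes.

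In BMDM the list counts as deposited went down after LPS and up after NZM with most of the table. Of all tested genes, 65.6% were lower and 15.2% higher in LPS than in Control (29.1% and 36.5% after centring). In LPS_NZM against LPS, 60.4% were higher and 16.9% lower (29.8% and 35.3% after centring). Of the 20 RNA processing genes, 17 were lower and 3 higher after LPS (9 and 4 after centring), and 16 were higher and 2 lower in LPS_NZM than in LPS (12 and 4 after centring). Of the 36 nuclear complex I subunits, 31 were lower and none higher after LPS (3 lower and 6 higher after centring), and 32 were higher in LPS_NZM than in LPS (13 higher and 2 lower after centring). Pnpt1, a nuclease of mitochondrial RNA, went against its list: it had 105 ± 4.5 TPM in LPS and 47.3 ± 1.4 TPM in Control libraries (log2 change 1.14, adjusted p = 2.54e-09), and 33.8 ± 0.3 TPM in LPS_NZM libraries (log2 change against LPS -1.61, adjusted p = 1.94e-10; SD, n = 3 each). Of 17 genes for replication of the chromosome and nucleotide supply, 15 were lower and 2 higher after LPS (8 and 3 after centring). In LPS_NZM against LPS, 12 of these were higher and 1 lower (10 and 5 after centring). Cmpk2, a mitochondrial nucleotide kinase that feeds synthesis of the mitochondrial chromosome, went against this list. It had 1334 ± 25 TPM in LPS and 40.6 ± 4.3 TPM in Control libraries, and 24.4 ± 2.4 TPM in LPS_NZM libraries. Its log2 change was 5.01 for LPS against Control (adjusted p = 8.45e-12) and -5.72 for LPS_NZM against LPS (adjusted p = 4.01e-12), against changes of at most 0.75 in size for the protein genes of the chromosome itself. Some lists departed from all tested genes after centring. Of 22 aminoacyl-tRNA synthetase genes, 15 were lower and 3 higher after LPS, and 18 higher and 1 lower in LPS_NZM than in LPS. Of 15 translation factors, 12 were higher and 1 lower in LPS_NZM than in LPS. Of 14 tested nuclear complex IV subunits, 11 were higher and 0 lower after LPS, against 1 and 6 for LPS_NZM against LPS. Of 16 tested nuclear ATP synthase subunits, 10 were higher and 0 lower after LPS.

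The labelled cell types were set against their markers. The 8 macrophage markers summed to 23130 to 23639 TPM in LPS_NZM, 22701 to 22864 TPM in LPS and 27741 to 30024 TPM in Control libraries. The 8 stromal markers also reached 2176 to 2969 TPM in BMDM, mostly from the collagen genes, with Col1a1, a type I collagen chain, at a mean of 1079 TPM in LPS_NZM, 1036 in LPS and 1303 in Control libraries. In BMSC these 8 summed to 4141 to 4227 TPM in Aged_NZM and 1253 to 1352 TPM in Aged libraries, the latter below every BMDM library. Col1a1 averaged 863 TPM in Aged_NZM and 309 TPM in Aged libraries, both below its BMDM means. Col1a2 averaged 1526 and 436 TPM there, against 973 to 1239 TPM in the BMDM groups, and Col3a1 783 and 295 TPM, against 171 to 207 TPM. Pdgfra, a growth factor receptor of mesenchymal cells, averaged 212 TPM in Aged_NZM and 91.4 TPM in Aged libraries. Cxcl12, a chemokine of marrow stroma, averaged 679 TPM in Aged_NZM and 128 TPM in Aged libraries. In the BMDM groups Pdgfra averaged 6.01 to 6.72 TPM and Cxcl12 45.7 to 59.2 TPM. The other stromal markers did not all separate the cell types. Lepr, another marker of marrow stromal cells, stood at no more than 0.64 TPM in BMSC and at no less than 2.83 TPM in BMDM. Pdgfrb averaged 98.6 TPM in Aged_NZM and 25.4 TPM in Aged libraries, against 17.5 to 29.6 TPM in the BMDM groups. Thy1 averaged 12.5 TPM in Aged_NZM and 4.51 TPM in Aged libraries, against 3.65 to 8.75 TPM in the BMDM groups. No library held the same values as another.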

How the data were processed

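The authors deposited TPM values per gene (56979 identifiers, 15 libraries); per the submitters' processing notes, fastp, HISAT2, StringTie, RSEM and the build GRCm39 were used, and per the labels the libraries were stranded and poly(A)-selected. Versions, roles of the tools and the strand setting are not given in the sources used here. From the TPM values, log2(TPM + 1) was tested with limma 3.58.1 (R 4.3.3; empirical Bayes with a mean-variance trend) for genes with a TPM of at least 1 in at least 3 libraries of the fit. P-values were Benjamini-Hochberg adjusted over all genes tested, and a call is an adjusted p under 0.05. The 9 BMDM libraries formed 1 fit, the 6 BMSC libraries another, and all 15 gave the difference of responses. Fold changes are on the log2(TPM + 1) scale, which understates changes of low genes. "Centred" means that every library was shifted to the median of its tested genes. Shares were compared with exact two-sided permutation tests. Gene names, order, strand and transcripts came from GENCODE M21, which lies on another build, so no coordinates are given; 52072 of 56979 identifiers matched. Copies were found through shared 31-base words and added by length. Only the limma fits for LPS against Control and for Aged_NZM against Aged were tried on simulated data, with independent noise for each gene. The fit of all 15 libraries and the permutation tests were not. Named genes are all 37 members, the copies and, per list and comparison, up to 3 called genes with the largest changes; marker genes were named in addition. The members and lists were chosen with earlier results of these data known. Alternatives were another pseudocount, filters, centring, quantile normalization, library weights, a replicate block, other sets of libraries and leaving out each library; adding the copies was chosen after seeing the data. Python 3.11.15, pandas 2.3.3, numpy 2.4.6 and matplotlib 3.10.9 were also used.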

Additional observations from a re-analysis of the deposited data

Results flagged for a closer look

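The response to NZM differed between BMSC (Aged_NZM against Aged) and BMDM (LPS_NZM against LPS) by a test of the difference itself, in limma's fit of all 15 libraries, for 14 of the 15 protein and ribosomal RNA genes; of all 16696 tested genes, 17.2% were called higher and 54.8% lower for this difference. Among complex I genes the BMSC response exceeded the BMDM response, on the log2 scale, by 0.94 for mt-Nd1, 0.65 for mt-Nd2, 1.16 for mt-Nd3, 1.82 for mt-Nd4, 2.58 for mt-Nd4l, 1.67 for mt-Nd5 and 1.93 for mt-Nd6. The difference was 2.38 for mt-Cytb, 1.75 for mt-Co1, 1.72 for mt-Co2, 1.47 for mt-Atp6 and 2.19 for mt-Atp8. For the ribosomal RNAs it was -2.09 for mt-Rnr1 and -2.15 for mt-Rnr2. These values are for the genes alone; with the copies added the difference was 2.19 for mt-Co2, 2.18 for mt-Atp6, 1.30 for mt-Nd3 and 1.99 for mt-Nd4l. Cell type, model drug and the way the table lists short and copied transcripts differ together between the compared responses and cannot be told apart.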

How the results depend on the processing

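The division of 7 genes with their copies, the unknown depth, the zeros of short transcripts in BMSC and the unknown strand setting limit what single values show. The counts of protein genes called kept within 1.5 times of those reported under another pseudocount, either filter, no trend and library weights. They also did so under quantile normalization and in fits of the compared groups alone. Rescaling TPM without the 37 members was applied to the gene lists only, where 166 counts kept within that range, 1 was weaker and 1 stronger. Centring on the median gene left 2 lower and 3 higher for LPS against Control, 1 higher and 6 lower for LPS_NZM against LPS, and 5 lower for LPS_NZM against Control; the fit of all 15 libraries also gave 5 lower there. Centring on the 13 protein genes, which by construction removes their common change, left 2 lower and 3 higher, 1 higher and 4 lower, and 1 higher and 1 lower in these comparisons, 3 higher and 5 lower for Aged_NZM against Aged, and 1 higher and 3 lower for the difference of responses. The log2 ratio of the summed protein share on the median-centred scale was 0.085 for LPS against Control, -0.16 for LPS_NZM against LPS, -0.073 for LPS_NZM against Control and 2.12 for Aged_NZM against Aged, where it was 1.52 with ribosomal RNAs and 2.10 with copies included. Leaving out 1 library gave 13 to 13 lower and 0 to 0 higher for LPS against Control, 13 to 13 higher and 0 to 0 lower for LPS_NZM against LPS, 8 to 10 lower for LPS_NZM against Control, 12 to 13 higher for Aged_NZM against Aged and 11 to 13 higher for the difference. The share ratios then ran from -0.48 to -0.44, 0.28 to 0.33, -0.17 to -0.15 and 1.95 to 2.00. These signs turned under centring on the median gene and, given second, on the 13 protein genes. For LPS against Control they were 0.033 and 0.023 for mt-Nd3, 0.028 and 0.018 for mt-Cytb, 0.21 and 0.20 for mt-Co1, 0.25 and 0.24 for mt-Co2, 0.19 and 0.18 for mt-Co3, 0.057 and 0.047 for mt-Atp6, 0.049 and 0.039 for mt-Atp8, 0.49 and 0.48 for mt-Tw, 0.53 and 0.52 for mt-Ta, 0.51 and 0.50 for mt-Tn, 0.066 and 0.056 for mt-Ty, 0.30 and 0.29 for mt-Ts1, 0.049 and 0.039 for mt-Td, 0.48 and 0.47 for mt-Tk, and 0.25 and 0.24 for mt-Tp. For LPS_NZM against LPS they were -0.093 and -0.0049 for mt-Nd4, -0.12 and -0.031 for mt-Cytb, -0.23 and -0.14 for mt-Co1, -0.31 and -0.22 for mt-Co2, -0.14 and -0.050 for mt-Co3, -0.25 and -0.16 for mt-Atp6, -0.20 and -0.11 for mt-Atp8, -0.27 and -0.18 for mt-Ts1, -0.35 and -0.26 for mt-Tp and, under the first alone, -0.0047 for mt-Nd1, -0.035 for mt-Nd4l and -0.0030 for mt-Nd6. Under the second alone the values for LPS_NZM against Control were 0.047 for mt-Nd2, 0.053 for mt-Co1, 0.019 for mt-Co2, 0.13 for mt-Co3 and 0.12 for mt-Ts1, and those for Aged_NZM against Aged were -0.81 for mt-Nd1, -0.92 for mt-Nd2, -0.56 for mt-Nd3, -0.023 for mt-Nd4, -0.044 for mt-Nd5, -0.23 for mt-Co1, -0.33 for mt-Co2 and -0.53 for mt-Atp6. Quantile normalization gave 0.43 for mt-Tw, 0.30 for mt-Ta and 0.50 for mt-Tk in LPS against Control. Deviations of same-numbered libraries had correlations from -0.076 to 0.20 in BMDM, 2 of 9 above 0.1, and from -0.041 to 0.015 in BMSC, 0 of 3. Those above 0.1 were both between Control and LPS_NZM, at 0.15 for replicate 1 and 0.20 for replicate 3. The labels do not say that the numbers pair libraries, so they were not taken as pairs. With the replicate block 13, 13, 9 and 13 protein genes were called in the comparisons in the order above, and 12 for the difference.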
